A study of Arabidopsis thaliana with 18 samples.

Results

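Cytochrome b6f is the thylakoid complex that carries electrons from plastoquinone, reduced by photosystem II, to plastocyanin, which feeds photosystem I. Its quinol-oxidising site is where the redox state of plastoquinone is read by STN7, the kinase that phosphorylates light-harvesting proteins in state transitions. Most subunits are encoded in the plastid genome and a few, such as the Rieske protein PETC and the small subunit PETM, in the nucleus. The transcripts described here are those of petA (cytochrome f), petB (cytochrome b6), petD (subunit IV), the small subunits petG, petL and petN, and ccsA, a protein that attaches heme to c-type cytochromes such as cytochrome f. They were chosen by gene symbol on the plastid genome. Each had 1 probe set, so they are 7 of the 22746 probe sets tested and 7 of 69 plastid-encoded genes measured.

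Rosette leaves of Arabidopsis thaliana were measured on 18 arrays, 3 for each of 6 groups. The groups were the stn7 knockout line, SALK_073254 in the Col-0 background, and the wild type Col-0 (WT), each at 0, 30 and 60 min. All plants were 23 days old, had grown for 20 days at 22 °C and 60% humidity under white light (35 µE, continuous), and had then been kept for 3 days under PSI light, which mainly excites photosystem I. The 0 min plants were harvested at that point, and the others after 30 or 60 min under PSII light, which mainly excites photosystem II. The mutant is a single insertion line, every sample was a pool of at least 250 plants, and plants held under PSI light for a further 30 or 60 min are not among the groups, so effects of the light and of elapsed time cannot be told apart. The labels name a 3' IVT kit, which primes on poly(A) tails, a feature that most plastid transcripts lack.

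Values are the deposited log2 RMA expression values. They ran from 2.53 to 14.02, with array medians of 6.1 to 6.31 and correlations of 0.9896 to 0.9967 between arrays of 1 group. Of 11 leaf markers 5 had a named probe set, and their summed level was 14.56 to 15.05 (log2) across arrays. The 1 measured marker of 6 for roots, EXPA7, lay between 3.87 and 4.41. That is below the array medians and above the lowest value of each array (2.53 to 2.67). No flower or vasculature marker was named. The STN7 transcript is not analysed here. Along the main axis of variation within groups, replicates 1 and 3 of WT at 0 min stood apart, with scores of 43 and 45.7. Replicate 2 scored 9.9, and the other 15 arrays scored -25.3 to 28.8. In such bulk leaf samples, fewer cells of a type and less RNA per cell cannot be told apart.

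Over 12 comparisons, 4 of the 84 tests on these 7 genes passed limma's moderated test at an adjusted p under 0.05 (Benjamini-Hochberg over all 22746 probe sets). In single comparisons 1.13% to 32.7% of all probe sets passed at that level. Of the 84 tests 13 had an unadjusted p under 0.05, a level reached by 3004 to 9344 of all probe sets in single comparisons. The 4 that passed were all rises, and all 4 had 60 min as the later time. petA, for cytochrome f, rose in WT at 60 min against 0 min and in stn7 at 60 min against 30 min. petB, for cytochrome b6, rose in stn7 at 60 min against 0 min, and ccsA in stn7 at 60 min against 30 min. None of the 7 passed the test in any comparison of stn7 with WT, and petD, petG, petL and petN passed in no comparison.

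**Figure D1:**
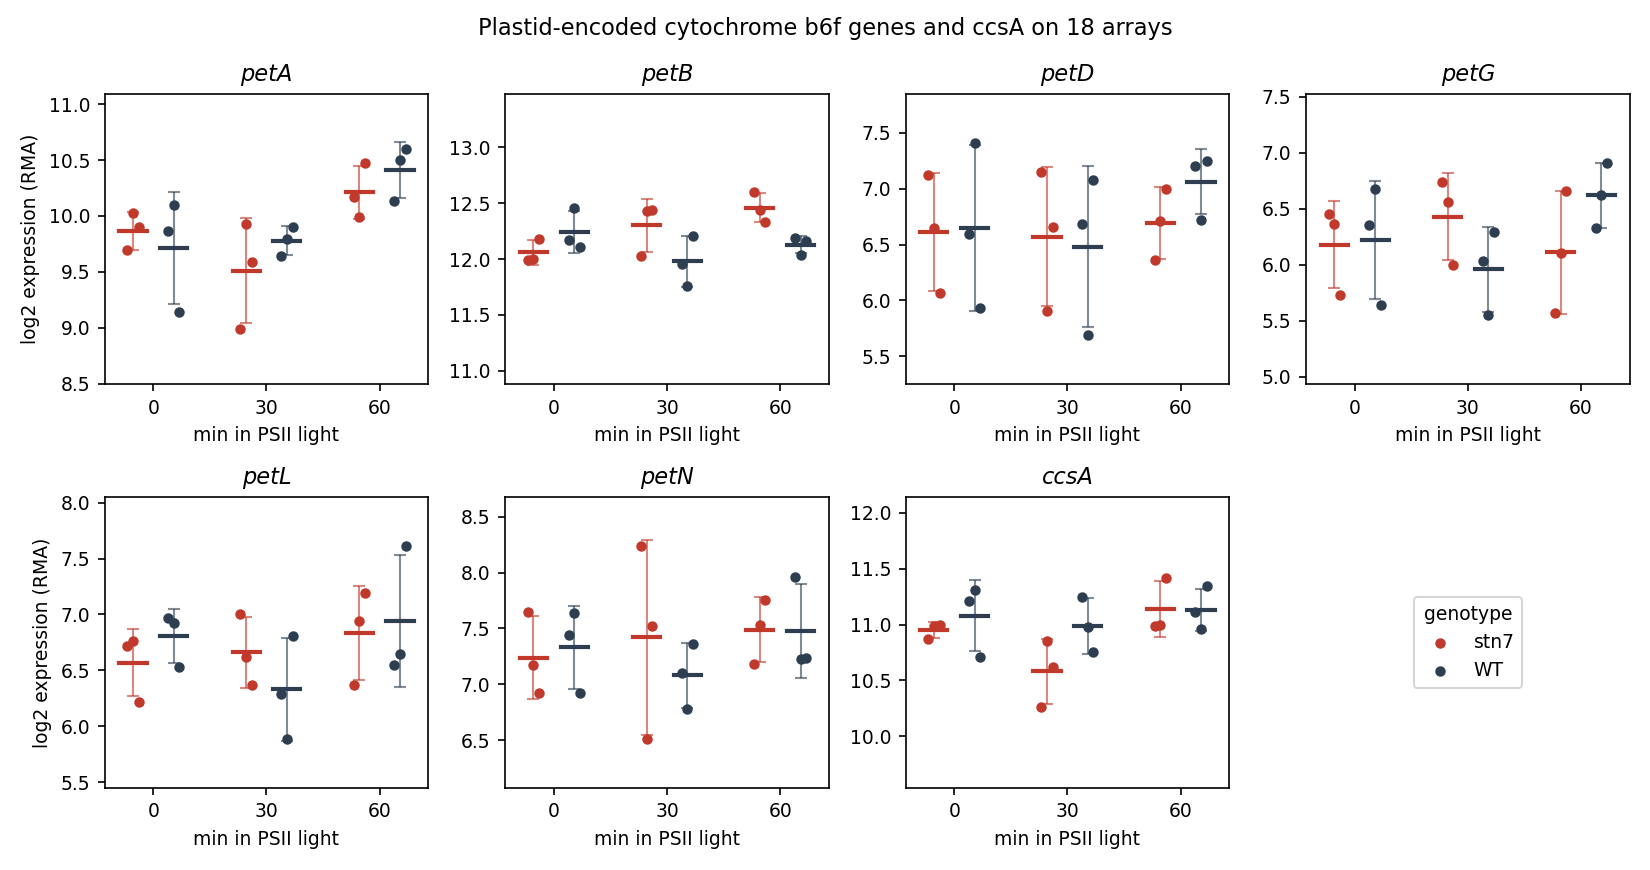
Deposited log2 RMA values of each gene on the 18 arrays, by time in PSII light, with stn7 left of WT at each time. Points are arrays, horizontal lines are group means and error bars are the SD (n = 3). In the petA panel the 3 WT arrays at 60 min lie between 10.13 and 10.6, above the WT arrays at 0 min (9.14 to 10.1), and in the petB panel the 3 stn7 arrays at 60 min lie between 12.33 and 12.6, above the WT arrays at 60 min (12.04 to 12.19).

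petA encodes cytochrome f, the heme protein that hands electrons to plastocyanin. In WT at 60 min the 3 arrays read 10.13, 10.5 and 10.6, against 9.87, 10.1 and 9.14 in WT at 0 min. All 3 arrays at 60 min were above all 3 at 0 min, narrowly so for the lowest of them, an order that held for 20.1% of all probe sets in this comparison. The difference was 0.71 ± 0.23 on the log2 scale (moderated SE), a 1.63-fold rise (adjusted p = 0.0241, limma, n = 3 arrays per group). At 30 min WT read 9.64, 9.79 and 9.9, and the difference from 0 min was 0.07 ± 0.23 (adjusted p = 0.865). The difference of 60 min from 30 min was 0.63 ± 0.23, with no overlap of the arrays but an adjusted p of 0.209.

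In WT at 0 min replicate 3 was the lowest of its group for petA and for all of the other 6 genes. Without that array the difference was 0.42 ± 0.21 (adjusted p = 0.171). Without WT 60 min replicate 2 or 3 it was 0.66 (adjusted p = 0.0755) and 0.61 (adjusted p = 0.092). Fitted with the within-group axis as an added term, it was 0.23 ± 0.31 (adjusted p = 0.783), and with WT 0 min replicate 2 as the only WT array at 0 min it was 0.31 ± 0.27 (adjusted p = 0.553). That last fit has 1 array in an arm, which is assumed to vary like the other groups. The 3' minus 5' difference of the control probe sets, a measure of RNA integrity and labelling, was 1.02 to 1.07 (log2) in WT at 60 min and 0.83 to 0.95 in WT at 0 min, and with it as a covariate petA differed by 0.74 ± 0.29 (adjusted p = 0.0701).

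In stn7 petA read 10.17, 9.99 and 10.47 at 60 min, against 8.99, 9.93 and 9.59 at 30 min. The groups did not overlap (as for 16.1% of all probe sets in this direction), although the highest 30 min array came close to the lowest 60 min array. The difference was 0.7 ± 0.23 (adjusted p = 0.044), again 1.63-fold. At 0 min stn7 read 9.7, 10.03 and 9.9, a narrow group between the other times, and neither the fitted 30 min difference (-0.37 ± 0.23, adjusted p = 0.387) nor the 60 min difference from 0 min (0.33 ± 0.23, adjusted p = 0.379) passed.

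The size of the stn7 difference at 60 min against 30 min depended on stn7 30 min replicate 1, the lowest petA value of all 18 arrays, without which it was 0.45 ± 0.22 (adjusted p = 0.199). The call was also lost without stn7 30 min replicate 3 (0.75, adjusted p = 0.1) and without replicate 1, 2 or 3 of stn7 at 60 min (0.72, 0.81 and 0.57, adjusted p = 0.0938, 0.0547 and 0.15). It was lost narrowly, at the same difference and adjusted p of 0.05 to 0.0544, without 1 of 7 arrays outside the comparison (stn7 0 min replicate 2, WT 0 min replicate 1, any WT 30 min replicate, and WT 60 min replicates 2 and 3).

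petB encodes cytochrome b6, which holds the hemes that pass electrons across the membrane. In stn7 its 60 min arrays read 12.6, 12.44 and 12.33, against 11.99, 12 and 12.18 at 0 min. The groups did not overlap (as for 16.2% of all probe sets in this direction) and the difference was 0.4 ± 0.13, or 1.32-fold (adjusted p = 0.0484). The 30 min arrays of stn7 read 12.03, 12.43 and 12.44, so that 2 of them lay in the range of the 60 min group. The call was kept in 14 of 29 alternative settings and in 7 of the 18 that left out 1 array. With the 3' minus 5' difference as a covariate it was larger, 0.68 ± 0.14 (adjusted p = 0.00471). It was lost without stn7 60 min replicate 1 or 2 or stn7 0 min replicate 1 or 2, with differences of 0.33 to 0.41 and adjusted p of 0.1 to 0.178. It was lost at the same difference, with adjusted p of 0.051 to 0.0589, without WT 0 min replicate 1, WT 30 min replicate 1, any WT 60 min replicate, or stn7 30 min replicate 2 or 3.

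In WT no petB difference passed the test. petB read 12.17, 12.46 and 12.11 at 0 min, 11.96, 11.76 and 12.21 at 30 min, and 12.19, 12.04 and 12.16 at 60 min. The groups overlapped, with differences from 0 min of -0.27 ± 0.13 at 30 min (adjusted p = 0.155) and -0.11 ± 0.13 at 60 min (adjusted p = 0.574). The difference between genotypes in the response, which is the log2 change of stn7 less that of WT, was 0.52 ± 0.19 at 60 min (adjusted p = 0.0598) and 0.51 ± 0.19 at 30 min (adjusted p = 0.143). Both share the 0 min arrays and are not independent of each other. The 60 min value was past the threshold in 12 of 29 alternative settings, among them each array centred on the same median (0.64 ± 0.2, adjusted p = 0.0235). It was past the threshold in 5 of the 18 that left out 1 array. Over the 29 settings its adjusted p (limma) ran up to 0.464.

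At 60 min itself petB was 12.33 to 12.6 in stn7 and 12.04 to 12.19 in WT, with no overlap, as for 18.3% of all probe sets in this direction. The difference of 0.33 ± 0.13 did not pass (adjusted p = 0.124). petB varied between replicates with the 3' minus 5' difference of the array's control probe sets (r = -0.72 over 18 arrays for deviations from the group mean), which averaged 1.11 ± 0.16 (log2) in stn7 and 1.05 ± 0.03 in WT at 60 min and 0.87 to 0.93 in the other groups. With that measure as a covariate the petB difference between stn7 and WT at 60 min was 0.41 ± 0.11 (limma, adjusted p = 0.023). This was the only 1 of 29 alternative settings in which it passed. It passed in 0 of the 18 that left out 1 array, with adjusted p of up to 0.355. The genotype difference in the 60 min response was 0.55 ± 0.15 with the covariate (adjusted p = 0.0164).

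**Figure D2:**
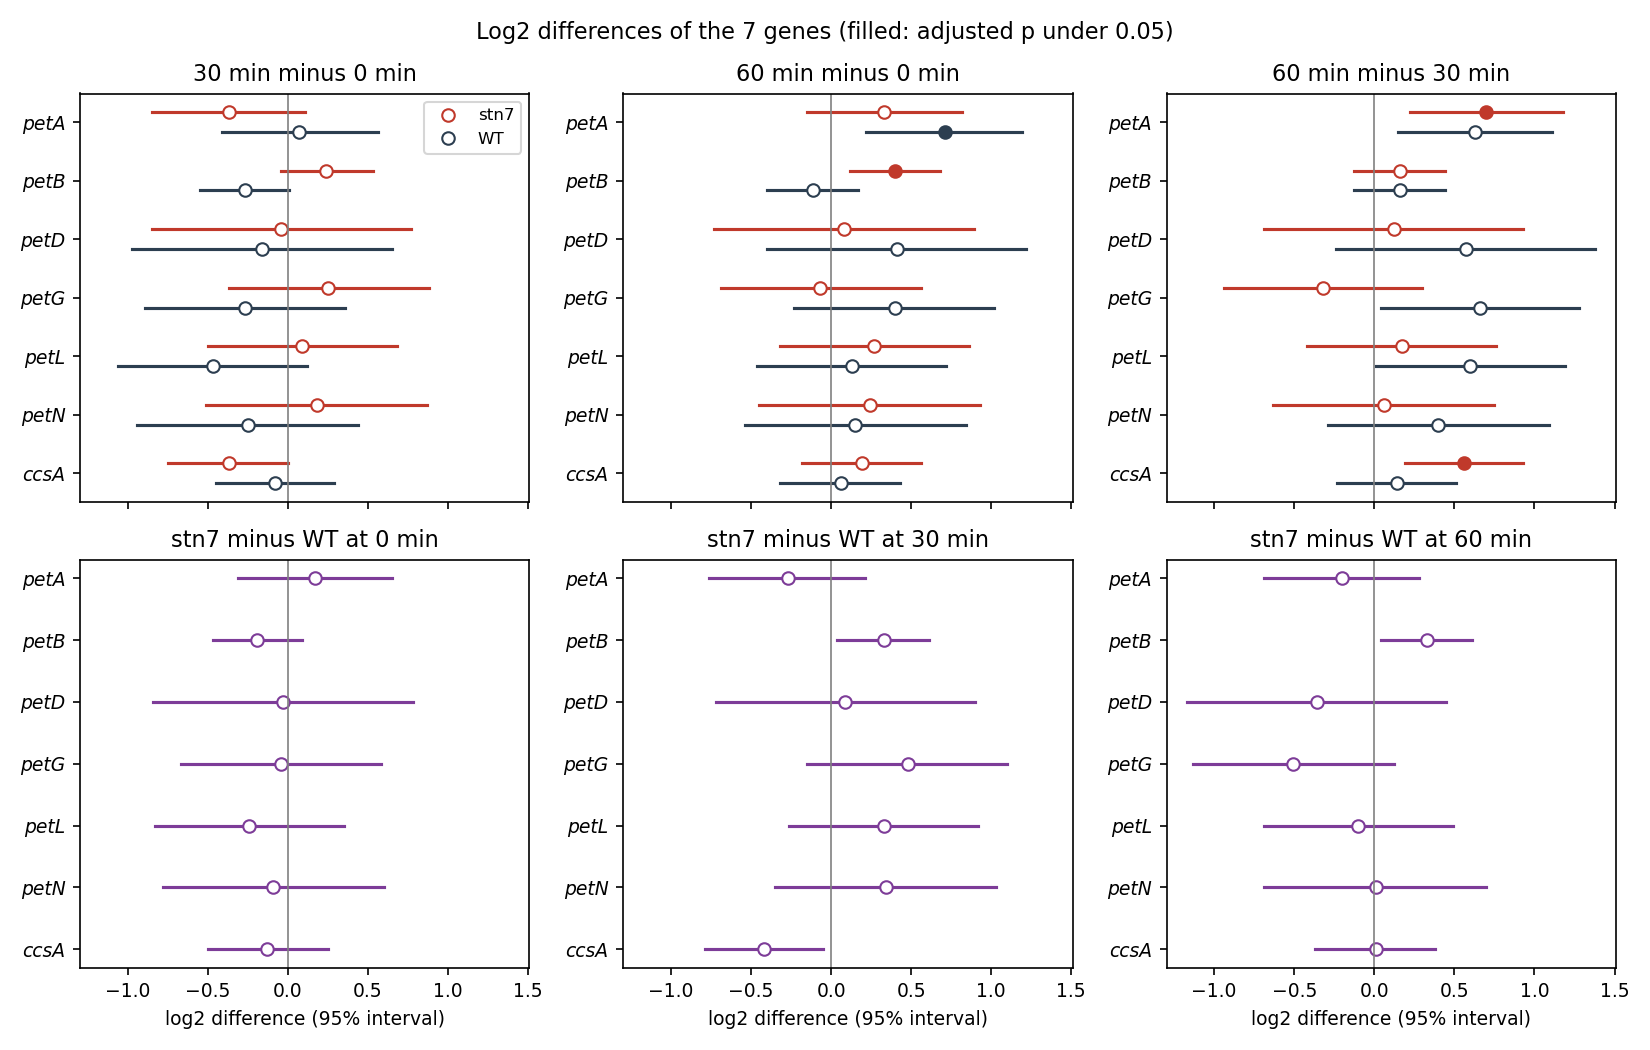
Log2 differences of the 7 genes with 95% intervals from limma. The top row gives later minus earlier time within stn7 (upper symbol of each gene) and WT (lower symbol), and the bottom row gives stn7 minus WT at each time. Filled symbols have an adjusted p under 0.05: petA in WT at 60 min minus 0 min (0.71), petB in stn7 at 60 min minus 0 min (0.4), and petA (0.7) and ccsA (0.56) in stn7 at 60 min minus 30 min.

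petD encodes subunit IV, which forms the core of the complex with cytochrome b6 and is read from the same transcription unit as petB. It had the widest spread between replicates of the 7 genes, with a within-group SD of 0.57 against 0.17 for petB. Its means were 6.61 ± 0.53, 6.57 ± 0.62 and 6.69 ± 0.32 in stn7 at 0, 30 and 60 min, and 6.65 ± 0.74, 6.48 ± 0.72 and 7.06 ± 0.29 in WT (SD, n = 3 each). Every pair of groups compared overlapped. The largest of its differences was 0.57 ± 0.38 in WT at 60 min against 30 min (adjusted p = 0.572), and the 95% interval ran from -0.24 to 1.38, which includes the size seen for petA.

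The small subunits petG, petL and petN are single-helix proteins at the edge of the complex, which in tobacco are needed for its assembly or stability. petG averaged 6.18 ± 0.39, 6.43 ± 0.39 and 6.11 ± 0.55 in stn7 at 0, 30 and 60 min, and 6.22 ± 0.53, 5.96 ± 0.38 and 6.62 ± 0.29 in WT. In WT the 60 min arrays (6.33, 6.62 and 6.91) lay above the 30 min arrays (6.03, 5.55 and 6.29), but the difference of 0.66 ± 0.3 did not pass (adjusted p = 0.341). In stn7 the same difference was -0.32 ± 0.3 (adjusted p = 0.55).

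petL averaged 6.57 ± 0.3, 6.66 ± 0.32 and 6.83 ± 0.42 in stn7 at 0, 30 and 60 min, and 6.81 ± 0.24, 6.33 ± 0.46 and 6.94 ± 0.59 in WT. The WT means differed by 0.6 ± 0.28 at 60 min against 30 min (adjusted p = 0.363), and 1 WT array at 60 min, replicate 3 at 7.61, was far above the other arrays of its group at 6.55 and 6.65. petN averaged 7.24 ± 0.37, 7.42 ± 0.87 and 7.49 ± 0.29 in stn7, and 7.33 ± 0.37, 7.08 ± 0.29 and 7.48 ± 0.42 in WT. Its stn7 arrays at 30 min read 8.24, 6.51 and 7.52, so that 1 group held both the highest and the lowest petN value of all 18 arrays. No difference of petN passed the test, and the largest between a pair of groups was 0.4 ± 0.33 in WT at 60 min against 30 min (adjusted p = 0.666). Its genotype difference in the 30 min response was 0.43 ± 0.46 (adjusted p = 0.674).

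ccsA acts with the nuclear-encoded CCS1 in attaching heme to cytochrome f. In stn7 its 60 min arrays read 10.99, 11 and 11.42, against 10.26, 10.85 and 10.62 at 30 min. The groups did not overlap (as for 16.1% of all probe sets in this direction), and ccsA rose by 0.56 ± 0.18, or 1.48-fold (adjusted p = 0.0368). The stn7 arrays at 0 min read 10.87, 10.99 and 11, all above those at 30 min (an order seen for 10.6% of all probe sets), with a difference of 30 min from 0 min of -0.37 ± 0.18 that did not pass (adjusted p = 0.224). The lowest group mean of ccsA was thus that of stn7 at 30 min, 10.58 ± 0.29. For the other 6 genes, the arrays of groups next to each other in the order of means overlapped. In WT ccsA averaged 11.08 ± 0.32, 10.99 ± 0.25 and 11.13 ± 0.19 at 0, 30 and 60 min, and the largest of its differences was 0.14 ± 0.18. Leaving out replicate 1 or 3 of stn7 at 30 min, or any 1 replicate of stn7 at 60 min, ended the call, with differences of 0.41 to 0.64 and adjusted p of 0.0512 to 0.152.

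Other measures also differed between stn7 at 60 min and at 30 min. The summed level of the guard cell markers GC1 and FAMA, 2 of 4 listed, was 7.94 to 8.06 at 60 min and 7.69 to 7.74 at 30 min, and GC1 rose by 1.23 ± 0.17 (adjusted p = 0.000305). FAMA had the opposite sign, -0.23 ± 0.12 (adjusted p = 0.232), with all 3 arrays at 60 min below those at 30 min. The summed level of the 5 leaf markers was 14.56 to 14.72 at 60 min and 14.86 to 15 at 30 min. The part of these shifts in the petA and ccsA values was not tested. With the 3' minus 5' difference as a covariate petA differed by 0.75 ± 0.32 (adjusted p = 0.198) and ccsA by 0.41 ± 0.24 (adjusted p = 0.371).

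The counts by comparison are set here beside those of the whole array. In WT at 60 min against 0 min 1 of the 7 genes rose and 0 fell, while 32.7% of all probe sets passed (16.2% higher). The median of the 7 differences was 0.15, against -0.05 for all probe sets. In stn7 at 60 min against 0 min 1 rose, with 16.6% of all probe sets called (8.85% higher) and a median of 0.24 against 0.01. At 60 min against 30 min in stn7 2 rose, with 16.3% called (7.36% higher). At 30 min against 0 min 0 of 7 passed in WT, where 27.6% of all probe sets did. There 0 of the 7 had an unadjusted p under 0.05, against 8481 of all 22746 probe sets. The WT shares against 0 min were smaller with the within-group axis, on which replicates 1 and 3 of WT at 0 min stood apart, as an added term. In that fit 0.374% of all probe sets passed at 30 min and 5.59% at 60 min. In stn7 0 of 7 passed at 30 min against 0 min, where 7.25% of all probe sets did. There 1 of the 7, ccsA, had an unadjusted p under 0.05, against 4949 of all 22746 probe sets. The pairs at 30 and 60 min share the 0 min arrays of their genotype.

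The comparison of 60 min with 30 min in WT had no call among the 7 genes, against 1.13% of all probe sets. All 7 differences were positive, from 0.14 for ccsA to 0.66 for petG, with a median of 0.57 against -0.03 for all probe sets. The median of the other 62 plastid genes was 0.37, with 51 of 62 positive and 1 called. At an unadjusted p under 0.05 there were 3 of the 7 (petA, petG and petL), against 19 of the other 62 plastid genes and 3004 of all 22746 probe sets. The arrays of petA and petG did not overlap, which held for 8.29% of all probe sets in that direction. In stn7 the same comparison gave 6 positive differences of 7, with a median of 0.16.

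**Figure D3:**
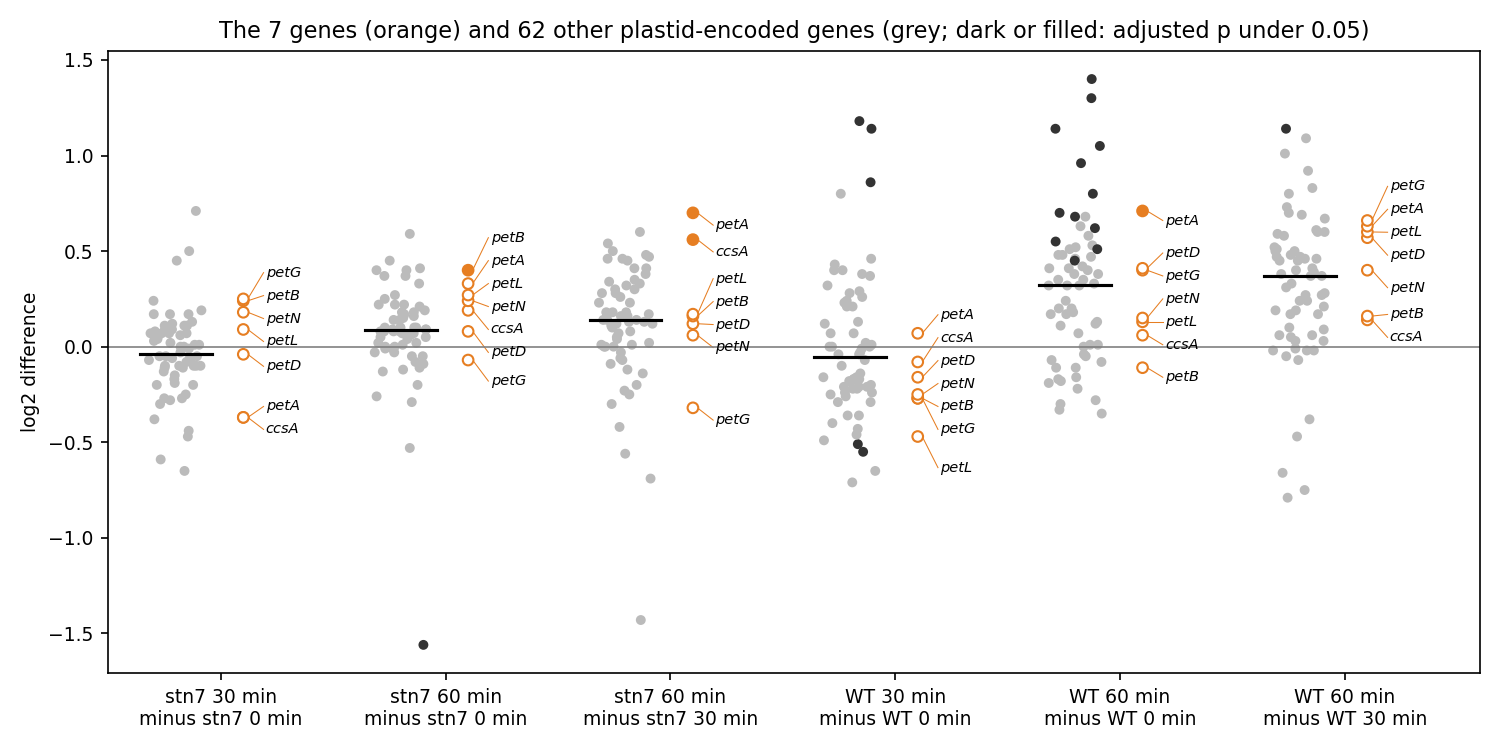
Log2 differences (later minus earlier time) of the 7 genes, in orange with names, and of the other 62 plastid-encoded genes, in grey, with stn7 on the left and WT on the right. Black lines are medians of the 62 genes, and dark or filled symbols have an adjusted p under 0.05. In WT at 60 min minus 0 min 12 of the 62 and petA rose, and the 62 genes had a median of 0.32.

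The other plastid genes were read beside petA. In WT at 60 min against 0 min 12 of the other 62 rose, beside 16.2% of all probe sets, and 0 fell, with a median of 0.32 against -0.05 for all probe sets, and 46 of 62 were positive. The median level of these 62 genes was 9.28 ± 0.32 in WT at 60 min (8.93 to 9.56) and 8.61 ± 0.39 in WT at 0 min (8.16 to 8.85). In stn7 at 60 min against 0 min 0 of the 62 passed as higher and 1 as lower, with a median of 0.08 and again 46 of 62 positive. In stn7 at 60 min against 30 min 0 of the 62 passed, with a median of 0.14 and 47 positive. The 7 genes were not tested against the other 62.

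No difference between stn7 and WT passed for the 7 genes. At 0 min 0 of 7 passed (15.9% of all probe sets did), with differences from -0.24 for petL to 0.17 for petA. Of the 7 genes 0 had an unadjusted p under 0.05 at 0 min, against 7321 of all 22746 probe sets. At 30 min 0 of 7 passed (1.78% of all probe sets). At that time 2 of the 7 had an unadjusted p under 0.05, against 3574 of all 22746 probe sets. The 2 were petB at 0.33 ± 0.13 (adjusted p = 0.238) and ccsA at -0.42 ± 0.18 (adjusted p = 0.251). At 60 min 0 of 7 passed (13.1%) and 1, petB, had an unadjusted p under 0.05, against 6004 of all 22746 probe sets. For the genotype differences in the response 0 of 7 passed at 30 min (2.04%) and 0 at 60 min (22.4%). In each 1 gene, petB, had an unadjusted p under 0.05, against 4525 of all probe sets at 30 min and 7805 at 60 min. With the within-group axis as an added term, 0.0132%, 3.64% and 2.4% of all probe sets differed between stn7 and WT at 0, 30 and 60 min. For the differences in the response 0.0484% passed in that fit at 30 min and 0% at 60 min.

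Averaged over the 3 times, stn7 and WT differed by -0.18 to 0.15 for the 7 genes, and 0 of 7 passed (10.1% of all probe sets did). Of the 7 genes 0 had an unadjusted p under 0.05, against 6009 of all 22746 probe sets. The largest positive difference was that of petB (0.15 ± 0.08, 95% interval -0.01 to 0.32, adjusted p = 0.216). The 9 petB arrays ran from 11.99 to 12.6 in stn7, with a median of 12.33, and from 11.76 to 12.46 in WT, with a median of 12.16. The largest negative one was that of ccsA (-0.18 ± 0.1, 95% interval -0.39 to 0.04). The intervals of petA (-0.38 to 0.18), petG (-0.38 to 0.34), petL (-0.34 to 0.34), petN (-0.31 to 0.49) and petD (-0.57 to 0.37) give the sizes of difference that these arrays could not tell from 0.

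The genes that lie beside these 7 on the plastid genome were read for comparison. psaJ, a small subunit of photosystem I, and the ribosomal protein genes rpl33 and rps18 belong to the same gene cluster as petL and petG. Over the 3 times all of these neighbours were lower in stn7, with differences of -0.77 ± 0.2 for psaJ (adjusted p = 0.0212), -0.56 ± 0.11 for rpl33 (adjusted p = 0.00396) and -0.4 ± 0.07 for rps18 (adjusted p = 0.00271). They were the 3 genes of the other 62 on the plastid genome to pass this test, and 0 of the 62 were higher. Of all 22746 probe sets 855 passed as lower and 1437 as higher. petL and petG, at 0 ± 0.16 and -0.02 ± 0.17, did not pass, and the difference between them and their neighbours was not tested.

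rps18 ran from 9.12 to 9.67 on the 9 stn7 arrays, with a median of 9.39, and from 9.63 to 10.04 on the 9 WT arrays, with a median of 9.81. Of the stn7 arrays 8 were below the lowest WT array. rpl33 ran from 9.85 to 10.43 in stn7 and from 10.31 to 11.16 in WT, with 7 of 9 stn7 arrays below the lowest WT array. psaJ was more scattered, from 8.48 to 9.89 in stn7 and from 8.87 to 10.49 in WT, with 3 of 9 stn7 arrays below. Such counts of arrays were not taken over all probe sets. At single times rps18 passed at 0 min (-0.56 ± 0.13, adjusted p = 0.00981), and rpl33 had -0.73 ± 0.19 at 30 min (adjusted p = 0.0561). The rps18 call at 0 min was kept in 24 of 29 alternative settings. It was lost without WT 0 min replicate 3 (-0.5, adjusted p = 0.0613). With the within-group axis as an added term rps18 had -0.56 ± 0.17 at 0 min (adjusted p = 0.252). The calls of rpl33 and rps18 over all times held in 29 of 29 alternative settings and that of psaJ in 28, the exception being a trended robust variance (adjusted p = 0.0558).

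**Figure D4:**
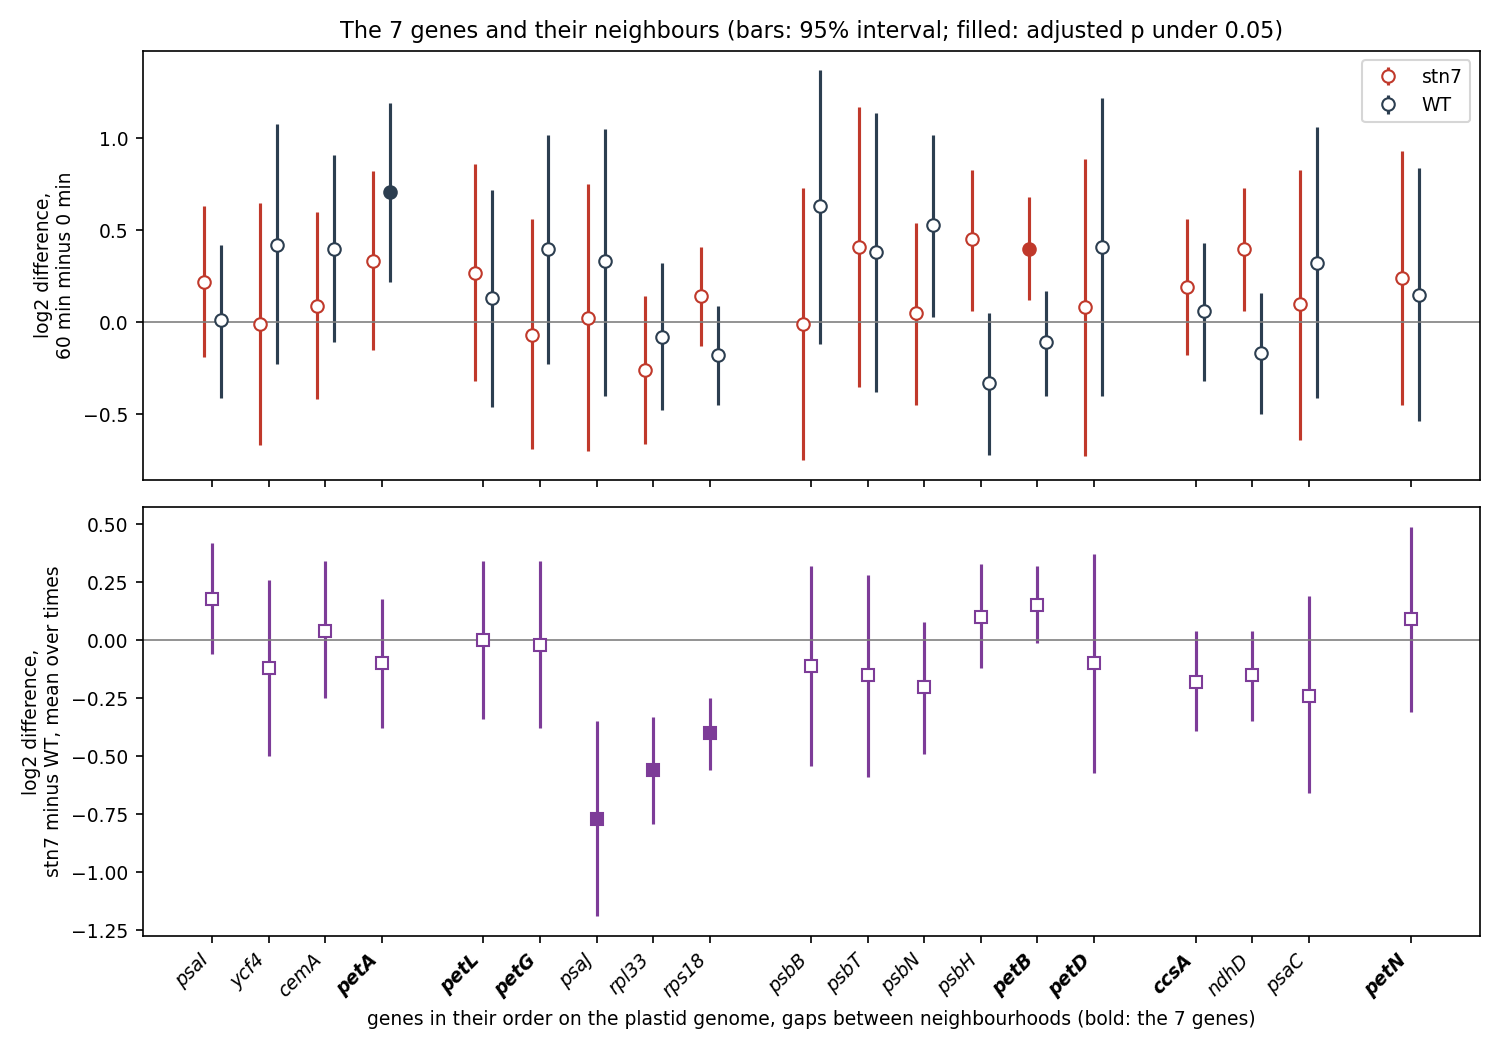
Log2 differences with 95% intervals of the 7 genes (bold) and their neighbours, in the order of the genes on the plastid genome with gaps between neighbourhoods. The upper panel gives 60 min minus 0 min in stn7 (left symbol) and WT (right symbol), and the lower panel stn7 minus WT as the mean over times. In the lower panel psaJ (-0.77), rpl33 (-0.56) and rps18 (-0.4) are filled (adjusted p under 0.05), while petL (0) and petG (-0.02) beside them are open.

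psbB, psbT and psbH, all subunits of photosystem II, share the transcription unit of petB and petD, with psbN on the opposite strand between them. psbH lies next to petB. It read 9.62, 9.57 and 9.21 in stn7 at 60 min, against 9.09, 8.8 and 9.18 in stn7 at 0 min (0.45 ± 0.18, adjusted p = 0.111). It read 9.21, 8.82 and 9.11 in WT at 60 min, against 9.53, 9.44 and 9.18 in WT at 0 min (-0.33 ± 0.18, adjusted p = 0.18). In stn7 all 3 arrays at 60 min were above those at 0 min, while the WT groups overlapped. The difference between the responses passed for psbH (0.78 ± 0.26, adjusted p = 0.037), beside 0.52 for petB, which did not pass.

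The psbH call was kept in 18 of 29 alternative settings and in 10 of the 18 that left out 1 array, with adjusted p of up to 0.521 when the within-group axis was an added term. psbH also fell in WT at 30 min against 0 min (-0.51 ± 0.18, adjusted p = 0.0451), where petB had -0.27. That call was kept in 17 of 29 settings, and without WT 30 min replicate 2 the difference was -0.32 (adjusted p = 0.238). psbB, psbT and psbN passed in no comparison. Beside petA, psaI, ycf4 and cemA passed in none either, and in WT at 60 min against 30 min they had differences of 0.47, 0.67 and 0.6, near the 0.63 of petA. There petA did not pass, and the median of the other 62 plastid genes was 0.37. Where petA passed, psaI, ycf4 and cemA had smaller differences. They were 0.01, 0.42 and 0.4 in WT at 60 min against 0 min (petA 0.71), and 0.5, 0.14 and 0.3 in stn7 at 60 min against 30 min (petA 0.7). ndhD and psaC, beside ccsA, passed in no comparison.

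Of 20 nuclear-encoded partners of the complex 6 had a named probe set, among them no Rieske protein, plastocyanin or ferredoxin gene. CRP1 codes for a pentatricopeptide repeat protein that in maize is needed for petA translation and for petD RNA. It read 7.65, 7.26 and 7.47 in WT at 60 min, against 6.56, 7.06 and 6.61 in WT at 0 min. Replicates 1 and 3 of WT at 0 min were the lowest of the 18 arrays, while replicate 2 was at the level of the lowest WT array at 30 min (7.07). CRP1 rose in WT at 60 min (0.71 ± 0.17, adjusted p = 0.0034) and at 30 min (0.52 ± 0.17, adjusted p = 0.0294). It was higher in stn7 than in WT at 0 min (0.72 ± 0.17, adjusted p = 0.0117), where stn7 read 7.5, 7.55 and 7.35. In stn7 its 60 min arrays read 6.7, 7.25 and 7.39, and the response at 60 min differed between genotypes (-1.07 ± 0.24, adjusted p = 0.00458).

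Each of these CRP1 calls uses the WT 0 min arrays. With replicate 2 as the only one of them, an arm of 1 array whose spread is taken from the other groups, none passed. CRP1 then differed by 0.4 in WT at 60 min (adjusted p = 0.314), 0.2 in WT at 30 min (adjusted p = 0.71) and 0.4 between stn7 and WT at 0 min (adjusted p = 0.612), and the genotype difference in the response was -0.75 (adjusted p = 0.133). CCS1, the partner of ccsA, was higher in stn7 at 0 min (0.47 ± 0.11, adjusted p = 0.0128) and as a mean over times (0.28 ± 0.07, adjusted p = 0.0134), with stn7 arrays from 7.64 to 8.2 and WT arrays from 7.37 to 7.77. With WT 0 min replicate 2 alone CCS1 had 0.36 at 0 min (adjusted p = 0.504) and 0.24 over the times (adjusted p = 0.0681). ccsA itself did not pass in either comparison. CCDA, which carries reducing equivalents into the thylakoid lumen for heme attachment, fell in stn7 at 60 min against 30 min (-0.34 ± 0.08, adjusted p = 0.0119, kept in 23 of 29 settings), where ccsA rose.

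PETM fell in WT at 30 min against 0 min (-0.31 ± 0.1, adjusted p = 0.0329), with arrays of 12.68, 12.56 and 12.5 against 12.86, 12.84 and 12.96. The call was kept in 21 of 29 settings. CCB3, a factor for heme attachment to cytochrome b6, and PGRL1B, of cyclic electron flow, passed in no comparison. Of the 6 thylakoid kinases, phosphatases and phosphoproteins listed, 1 had a named probe set. That was TSP9, a thylakoid phosphoprotein, and it fell in stn7 at 60 min against 0 min (-0.39 ± 0.12, adjusted p = 0.0378). Without stn7 60 min replicate 1 TSP9 had -0.25 (adjusted p = 0.211).

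The 7 genes did not vary as a block from replicate to replicate. As deviations from the group means over 18 arrays, petG and petL, which lie side by side, had r = 0.85, petD and petN 0.83, petA and ccsA 0.73, petD and petG 0.72, and petD and petL 0.66. petB and petD had r = 0.17 although they share a transcription unit. Over the 21 pairs the median was 0.27 and the range -0.33 to 0.85, while the median over all pairs of plastid genes was 0.36. The points of each pair share array, labelling and normalization, and these values are a description of the arrays.

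**Figure D5:**
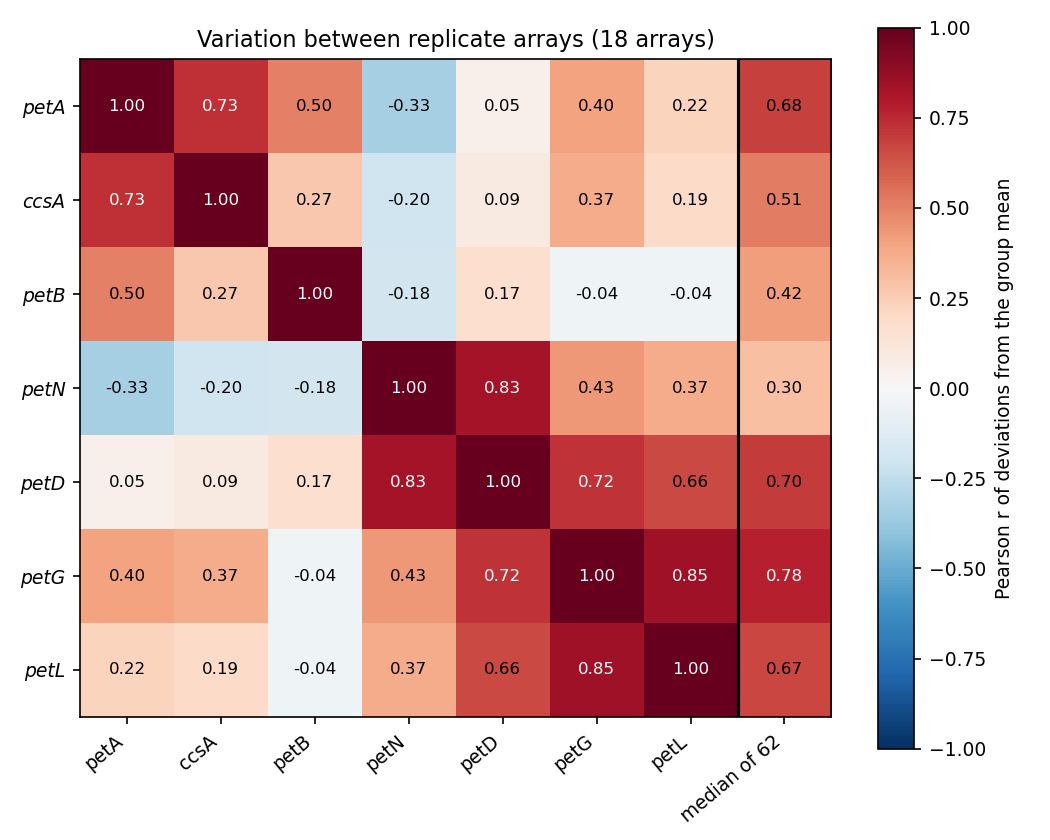
Pearson r between genes of the deviations of each array from its group mean, over 18 arrays. The last column gives r with the median deviation of the 62 other plastid-encoded genes. petD, petG and petL form a group of high values with petN (0.37 to 0.85 among the 4), petA pairs with ccsA (0.73), and petB has no value above 0.5.

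The spread between replicates also differed among the genes. The within-group SD was 0.17 for petB, 0.24 for ccsA, 0.33 for petA, 0.41 for petL, 0.43 for petG, 0.48 for petN and 0.57 for petD, against a median of 0.15 over all probe sets and 0.34 over the other plastid genes. The 3 genes with calls were those with the smallest spread. The probe sets of petD, petG, petL and petN had medians of 6.34 to 7.3 over the 18 arrays, near the array medians. Replicate deviations tracked the median of the other plastid genes most for petG (r = 0.78) and least for petN (r = 0.3).

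The genes whose values over the 18 arrays were most like those of each member, the first 3 by Pearson r among probe sets with 1 gene, were mostly plastid-encoded, 17 of 21. For petA they were psaB (0.92), of the photosystem I core, psbC (0.86), of the photosystem II core antenna, and the nuclear AT2G04520 (0.82). For petB they were psbH (0.86), ndhI (0.82) and GTR2 (0.82), and for petD rps14, ndhG and ycf4 (0.91 each). For petL they were ndhF, rps16 and psbT, for petG ndhE, rps14 and atpH, and for petN ycf3, rps14 and accD. For ccsA they were matK (0.78) and the nuclear AT1G16640 and AT1G14200 (0.77 each). As deviations from the group means, these 21 pairs had r of 0.6 (petB with GTR2) to 0.93 (petA with psaB, petD with ndhG). Variation between replicates thus enters these likenesses, which do not single out a shared response to light or genotype. psaB and psbC, the likest to petA, also rose in WT at 60 min against 0 min, by 1.05 ± 0.24 and 1.14 ± 0.27 (limma, adjusted p = 0.00225 and 0.00327). They were picked for likeness to petA on these same arrays, so their rise is not separate evidence for that of petA.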

How the data were processed

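The deposited table holds log2 expression values of 22810 Affymetrix probe sets on 18 arrays. Per the submitters' processing notes, the authors used GCOS, Affymetrix Expression Console 1.1 and RMA. The sources used here do not give the settings of RMA. The 64 control probe sets were removed and no filter or scaling was applied. The probe annotation gave 1 gene for 13513 probe sets (59.4%), several for 503, and 8730 were unlisted. Of the first, 13436 matched RefSeq (TAIR10.1). No coordinates are given, because no genome build is named for the array.

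The limma package 3.58.1 (R 4.3.3) fitted the 6 group means on the 18 arrays (lmFit, then contrasts.fit and eBayes, 17.8 degrees of freedom, of which 5.8 from the prior). Tests were two-sided, with Benjamini-Hochberg adjustment over 22746 probe sets within each of 12 comparisons, and called at an adjusted p under 0.05. Differences are stn7 minus WT, later minus earlier, or the response in stn7 minus that in WT. The number of arrays limits the precision. No pair of arrays held identical values. The 3' minus 5' difference is the mean over 6 pairs of control probe sets. The within-group axis is the leading component of the residuals (28% of the within-group variance). The fit was also run on simulated data, with noise drawn independently for each probe set and array. Such data lack the shared variation along that axis, so the run cannot show how the fit copes with it. Figures were drawn with matplotlib 3.10.9 in Python 3.11.15.

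The members and the lists of neighbours, partners and markers were chosen with earlier results of these data known. All members were tested in every comparison, neighbours were named with their calls, partners and kinases where they passed, and the 3 likest single-gene probe sets of each member. Alternatives were quantile normalization, median centring, array weights, a trended robust variance, leaving out probe sets below the median or the 30th percentile of signal, fitting only the groups compared, a block for the replicate number, the 3' minus 5' difference as a covariate, and leaving out each array. The axis as a covariate and WT 0 min replicate 2 alone were added after seeing the data. The labels call the arrays biological replicates. Residuals of arrays with the same number correlated between -0.41 and 0.33 over 45 pairs, so the numbers were not taken to pair the samples.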

Additional observations from a re-analysis of the deposited data

Results flagged for a closer look

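The test of the difference between genotypes in the 60 min response, adjusted over all probe sets by limma, marked 4 genes of the neighbour, partner and marker lists and none of the 7 genes themselves. psbH, next to petB, had a difference of 0.78 (adjusted p = 0.037). CRP1 had -1.07 (adjusted p = 0.00458). The leaf markers LHCB4.2, of the antenna, and SBPASE, of the Calvin-Benson cycle, had -0.43 (adjusted p = 0.0332) and -0.76 (adjusted p = 0.0103). Of 29 alternative settings the psbH call was kept in 18, that of LHCB4.2 in 17, and those of CRP1 and SBPASE in 27 each. With the within-group axis as an added term none of the 4 passed (limma, adjusted p of 0.521 to 0.728), nor did any other probe set. With WT 0 min replicate 2 as the only WT array at 0 min, which is assumed to vary like the other groups, none passed: psbH had 0.84 (adjusted p = 0.143), CRP1 -0.75 (0.133), LHCB4.2 -0.51 (0.111) and SBPASE -0.6 (0.169). The differences of psbH and LHCB4.2 were larger in that fit than with all arrays, and those of CRP1 and SBPASE smaller. No test for outlying arrays was run in groups of 3, and the fit with WT 0 min replicate 2 alone was added after seeing the data.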

How the results depend on the processing

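No called difference changed sign under the alternatives. Of 348 counts of called genes among the 7, 294 stayed the same and 54 moved, always within a count of 0 to 2. For stn7 at 60 min against 0 min the count went to 0 with quantile normalization, median centring, a fit to only the groups compared and the replicate block (petB 0.4 ± 0.14, adjusted p = 0.0658). For stn7 at 60 min against 30 min it was 1 with a trended robust variance and with array weights (ccsA), and with the replicate block (petA; ccsA adjusted p = 0.0551), and 0 with only the groups compared. For the genotype difference in the 60 min response it was 1 (petB) with median centring, both filters on signal, the trended robust variance, array weights and only the groups compared. For WT at 60 min against 30 min only the groups compared gave 1 (petA, adjusted p = 0.0402). With the 3' minus 5' covariate the counts were 0 for WT at 60 min against 0 min and for stn7 at 60 min against 30 min, and 1 (petB) for WT at 30 min against 0 min, stn7 against WT at 60 min and over all times, and the genotype difference at 60 min. The within-group axis, and WT 0 min replicate 2 alone with the spread taken from the other groups, gave 0 for WT at 60 min against 0 min. The cause of these moves was not tested.

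Leaving out 1 array gave counts of 0 to 1 for WT at 60 min against 0 min, 0 to 1 for stn7 at 60 min against 0 min, 0 to 2 for stn7 at 60 min against 30 min and 0 to 1 for the genotype difference in the 60 min response. The petA call in WT held in 23 of 29 settings, the ccsA call in 21, the petB call in 14 and the petA call in stn7 in 13. With replicate numbers as a block no other count of calls changed, and 6 of 18 arrays correlated best with arrays of their own number. Median centring moved the median of all probe sets by -0.1 in WT at 30 min and -0.12 at 60 min against 0 min, by -0.11 in stn7 against WT at 0 min and by 0.13 in the genotype difference at 60 min. The number of arrays, and the spread of petD, petG, petL and petN between replicates, limit what could be detected.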
